A study of Bos taurus with 18 samples.

Results

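The genes described here run the division of the chromosomes: the cyclins and kinases that start mitosis, the spindle checkpoint, the kinetochore, the spindle, cytokinesis and condensin. A list of 50 such genes was drawn up by function. No measured value served as a threshold, but earlier results of these data were known when the list was made. Of the 50 genes, 35 had a probe set with a single gene symbol on the array, among 9155 genes in all. The other 15 (CDKN3, PTTG1, TTK, PBK, INCENP, NUF2, SPC25, CENPE, KIF11, DLGAP5, PRC1, ANLN, RACGAP1, TOP2A and SMC2) are not analysed here. Each of the 35 measured genes was kept, whatever its level.

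The arrays measured RNA of bovine preovulatory follicles. Each of 6 cows gave its single dominant follicle, and theca, aspirated (antral) granulosa and membrane-associated granulosa of that follicle were hybridised separately, which gave 18 arrays in 6 groups of 3. Cows A, B and C gave theirs 22 h after GnRH, which was used to set off the surge of luteinising hormone (LH), and follicles of cows D, F and G were taken before the surge. The groups after and before LH are therefore different cows, while the 3 populations of a follicle share a cow. The labels used here give no breed, age or follicle size, and each preparation is a mixture of cells from 1 follicle.

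As background, granulosa cells line the follicle and divide as it grows, and theca cells form its vascular outer layer. The LH surge starts ovulation and turns both into luteal cells, and granulosa cells are known to leave the cell cycle in that process. In a dividing cell, cyclin B with CDK1 drives entry into mitosis, kinetochores tie the chromosomes to spindle microtubules, and the spindle checkpoint holds the anaphase-promoting complex until every kinetochore is attached. Most of these genes are transcribed mainly in late S phase, G2 and mitosis, so that their transcripts are widely read as a sign of cycling cells.

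All levels are log2 signals per probe set, so that a difference of 1 is a doubling, and a gene with several probe sets is read from the one whose mean over the 18 arrays is highest. Levels of different genes are not compared, because probe sets differ in brightness. In each list of levels, values after LH stand in the order of cows A, B and C, and values before LH in the order of cows D, F and G. Changes are given ± standard error with n = 3 cows per group. A gene was called when its adjusted p was under 0.05 in limma after Benjamini-Hochberg adjustment across the 24016 probe sets tested. Counts at an unadjusted p under 0.05 are given without the share of all probe sets at that threshold. They are description only, and nothing particular to the members is read from them. A signal under 4.62 is treated as dim, since 8005 probe sets have a mean below that value.

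Array medians over all probe sets were between 5.74 and 5.86, and replicate arrays of a group correlated at 0.97 to 0.99. No array was a copy of another. Markers of the other population were present in each. The theca hormone INSL3 averaged 14.29 ± 0.32 in theca after LH and 14.78 ± 0.09 before LH, 10.20 ± 0.90 and 10.25 ± 0.47 in antral granulosa after and before LH, and 12.92 ± 0.61 and 12.84 ± 1.72 in membrane granulosa (SD, n = 3). The aromatase CYP19A1, which marks granulosa before the surge, averaged 10.29 ± 1.87 in theca before LH, 12.72 ± 0.65 in antral granulosa and 13.73 ± 0.17 in membrane granulosa. FSHR, the granulosa receptor for FSH, was below 4.62 on 2 of 3 theca arrays after LH and 1 of 3 before LH, and above it on all granulosa arrays.

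The members fell steeply after LH in both granulosa populations. In antral granulosa 33 of 35 were called lower and 0 higher, where 12.2% of all probe sets were called lower and 10.3% higher, and in membrane granulosa 33 of 35 were called lower and 0 higher, where 10.9% and 10.0% were. Limma gave no member an unadjusted p under 0.05 in the higher direction in either population. The median change of the 35 was -3.03 in antral and -2.56 in membrane granulosa, an 8.20-fold and a 5.92-fold lower signal. The median of all probe sets was -0.01 and -0.05. With the mean of all probe sets of each gene, the medians of the 35 were smaller, at -2.64 in antral and -2.08 in membrane granulosa. The called falls were between 2.51-fold and 18.6-fold in antral granulosa and between 2.03-fold and 11.5-fold in membrane granulosa. For all 33, every array after LH was below every array before LH in both populations, against 19.4% of probe sets in antral and 19.7% in membrane granulosa. In such tissue samples, fewer dividing cells and less of each transcript per cell cannot be told apart.

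Array by array, the median of the 35 members was highest in theca in each of cows A, B and C after LH and lowest in theca in each of cows D, F and G before LH. These medians averaged 7.97 ± 0.43 in theca after LH and 8.40 ± 0.21 before LH, 6.38 ± 0.13 in antral granulosa after LH and 9.48 ± 0.16 before LH, and 6.54 ± 0.26 in membrane granulosa after LH and 9.10 ± 0.03 before LH (SD, n = 3 cows). Theca thus lay between granulosa after LH and granulosa before LH at both times.

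**Figure D1:**
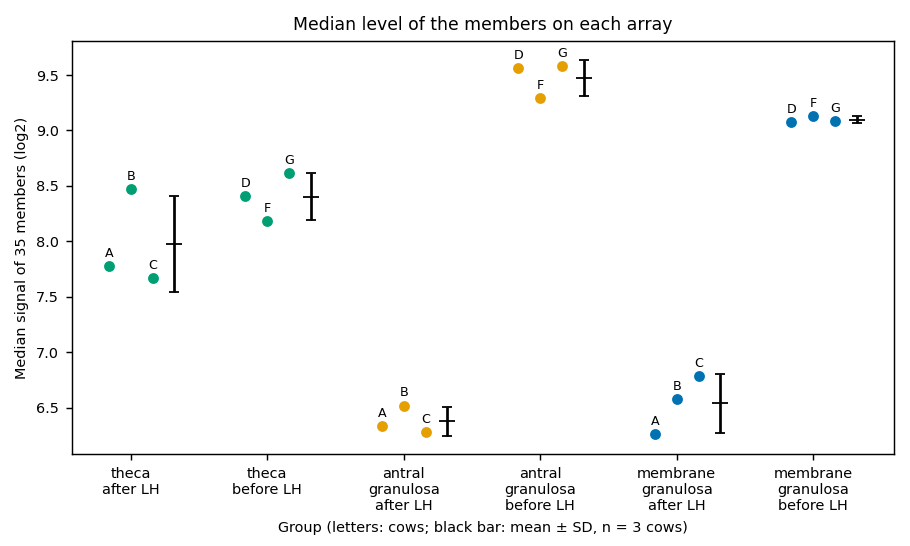
Median log2 signal of the 35 members on each of the 18 arrays, by population and time (letters name the cow, black bars give mean ± SD, n = 3). Granulosa arrays lie at 6.26 to 6.79 after LH and at 9.08 to 9.58 before LH, and theca arrays at 7.67 to 8.47 after LH and 8.19 to 8.61 before LH.

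**Figure D2:**
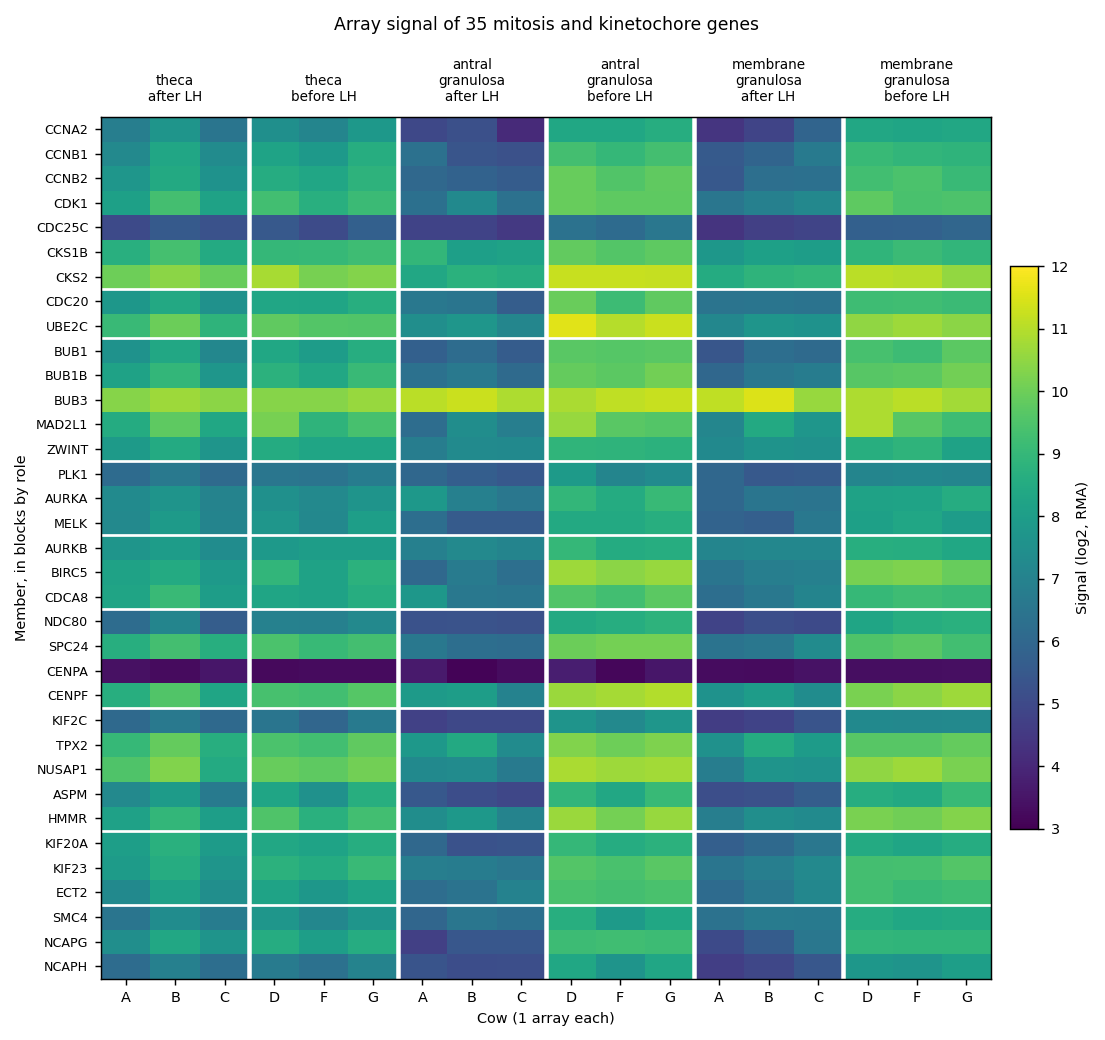
Log2 signal of each of the 35 members (down the page, in blocks by role) on each array (across, by population, time and cow). The columns of granulosa after LH are dark in nearly every row, apart from BUB3, which is bright on every array, and CENPA, which is dark on every array.

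All 7 measured cyclins, CDK1 and CDK1 regulators fell in both granulosa populations, with median changes of -3.17 in antral and -2.67 in membrane granulosa. CCNB2, a B-type cyclin that activates CDK1, read 6.05, 5.84 and 5.62 in antral granulosa after LH, against 9.90, 9.54 and 9.82 before LH, and 5.49, 6.30 and 6.34 in membrane granulosa after LH, against 9.28, 9.44 and 9.10 before LH. Theca levels of CCNB2 were 7.74, 8.47 and 7.58 after LH, against 8.57, 8.32 and 8.82 before LH. The granulosa groups were separated by more than 2 log2 units, while the theca groups overlapped at 8.32 and 8.47. CCNB2 fell by 3.92 ± 0.25 in antral granulosa (adjusted p = 2.51e-08) and fell by 3.23 ± 0.25 in membrane granulosa (adjusted p = 2.66e-07). CKS2, a small subunit that binds CDK1, read 8.40, 8.76 and 8.61 in antral granulosa after LH, against 11.25, 11.23 and 11.21 before LH, and 8.52, 8.86 and 8.96 in membrane granulosa after LH, against 11.05, 10.99 and 10.54 before LH. Theca levels of CKS2 were 10.01, 10.42 and 9.92 after LH, against 10.81, 10.16 and 10.35 before LH, again with an overlap. It fell by 2.64 ± 0.19 in antral granulosa (adjusted p = 1.15e-07) and fell by 2.08 ± 0.19 in membrane granulosa (adjusted p = 1.48e-06). CCNA2, the cyclin of S phase and G2, fell by 3.71 ± 0.37 in antral granulosa (adjusted p = 2.27e-06) and fell by 3.31 ± 0.37 in membrane granulosa (adjusted p = 9.67e-06), and its level dropped below 4.62 on 1 of 3 arrays in each. CDK1 itself fell by 3.17 ± 0.31 in antral granulosa (adjusted p = 1.61e-06) and fell by 2.67 ± 0.31 in membrane granulosa (adjusted p = 1.21e-05) and CCNB1 by 3.55 ± 0.34 in antral granulosa (adjusted p = 1.59e-06) and fell by 2.91 ± 0.34 in membrane granulosa (adjusted p = 1.57e-05). The smallest falls were those of CDC25C, the phosphatase that switches CDK1 on (-1.67 ± 0.19 and -1.21 ± 0.19), and CKS1B, the relative of CKS2 that also serves degradation of CDK inhibitors (-1.33 ± 0.23 in antral and -1.02 ± 0.23 in membrane granulosa). CDC25C was also below 4.62 on 1 of 3 arrays after LH in each granulosa population, so its fall is limited by the dim range.

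Both measured members that act with the anaphase-promoting complex fell. Its core subunits are described with the wider set below. UBE2C, the ubiquitin-conjugating enzyme that works with the complex, read 7.46, 7.72 and 7.15 in antral granulosa after LH, against 11.60, 10.99 and 11.29 before LH, and 7.16, 7.69 and 7.59 in membrane granulosa after LH, against 10.50, 10.68 and 10.45 before LH. Theca levels of UBE2C were 9.09, 9.96 and 8.87 after LH, against 9.80, 9.58 and 9.57 before LH. It fell by 3.85 ± 0.25 in antral granulosa (adjusted p = 2.84e-08) and fell by 3.06 ± 0.25 in membrane granulosa (adjusted p = 4.13e-07). CDC20, the activator that the checkpoint holds back, read 6.62, 6.51 and 5.64 in antral granulosa after LH, against 9.94, 9.16 and 9.79 before LH, and 6.48, 6.50 and 6.42 in membrane granulosa after LH, against 9.20, 9.25 and 9.13 before LH. Theca levels of CDC20 were 7.78, 8.42 and 7.55 after LH, against 8.32, 8.28 and 8.63 before LH. It fell by 3.38 ± 0.26 in antral granulosa (adjusted p = 1.99e-07) and fell by 2.72 ± 0.26 in membrane granulosa (adjusted p = 2.1e-06).

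Of the 5 measured spindle checkpoint members 4 fell, and BUB3 did not. BUB1, a kinase recruited to unattached kinetochores, read 5.77, 6.20 and 5.62 in antral granulosa after LH, against 9.70, 9.63 and 9.71 before LH, and 5.39, 6.24 and 6.12 in membrane granulosa after LH, against 9.37, 9.16 and 9.73 before LH. Theca levels of BUB1 were 7.59, 8.38 and 7.16 after LH, against 8.38, 7.97 and 8.59 before LH. It fell by 3.82 ± 0.29 in antral granulosa (adjusted p = 1.57e-07) and fell by 3.50 ± 0.29 in membrane granulosa (adjusted p = 4.84e-07), and its theca groups overlapped. BUB1B, which encodes the checkpoint protein BubR1, read 6.35, 6.66 and 6.13 in antral granulosa after LH, against 9.87, 9.72 and 10.09 before LH, and 6.01, 6.58 and 6.79 in membrane granulosa after LH, against 9.67, 9.74 and 10.10 before LH. Theca levels of BUB1B were 8.18, 8.97 and 7.74 after LH, against 8.78, 8.39 and 9.10 before LH. It fell by 3.52 ± 0.28 in antral granulosa (adjusted p = 2.64e-07) and fell by 3.38 ± 0.28 in membrane granulosa (adjusted p = 5.71e-07). MAD2L1, the inhibitor of CDC20, fell by 3.14 ± 0.51 in antral granulosa (adjusted p = 0.000292) and fell by 2.15 ± 0.51 in membrane granulosa (adjusted p = 0.00647) and ZWINT, a kinetochore protein needed for checkpoint signalling, by 1.71 ± 0.21 in antral granulosa (adjusted p = 1.9e-05) and fell by 1.06 ± 0.21 in membrane granulosa (adjusted p = 0.00166). For MAD2L1 the membrane granulosa call was lost with the replicate number as a block (adjusted p = 0.0735).

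BUB3, the partner through which BUB1 and BubR1 bind kinetochores, stayed bright on every array. It read 11.06, 11.29 and 10.88 in antral granulosa after LH, against 10.87, 11.13 and 11.23 before LH, and 11.14, 11.54 and 10.63 in membrane granulosa after LH, against 10.88, 11.07 and 10.77 before LH. Theca levels of BUB3 were 10.35, 10.68 and 10.42 after LH, against 10.35, 10.38 and 10.62 before LH. Its changes with LH were 0.03 ± 0.19 in theca, 0.00 ± 0.19 in antral granulosa and 0.20 ± 0.19 in membrane granulosa, with adjusted p = 0.968, 0.994 and 0.552. The 95% intervals were -0.38 to 0.45, -0.41 to 0.42 and -0.22 to 0.61, so that falls of the size seen in the other checkpoint genes lie outside them. As background, BUB3 also has reported roles outside mitosis.

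The 3 mitotic kinases PLK1, AURKA and MELK all fell. MELK, a kinase of the AMPK family that is high in dividing cells, read 6.25, 5.60 and 5.59 in antral granulosa after LH, against 8.46, 8.46 and 8.65 before LH, and 5.87, 5.72 and 6.60 in membrane granulosa after LH, against 8.10, 8.32 and 7.97 before LH. Theca levels of MELK were 7.25, 7.89 and 7.06 after LH, against 7.71, 7.19 and 8.03 before LH. It fell by 2.71 ± 0.27 in antral granulosa (adjusted p = 2.5e-06) and fell by 2.07 ± 0.27 in membrane granulosa (adjusted p = 4.81e-05). AURKA, the kinase of the spindle poles, read 7.78, 6.92 and 6.57 in antral granulosa after LH, against 8.96, 8.55 and 9.08 before LH, and 5.99, 6.50 and 6.47 in membrane granulosa after LH, against 8.19, 8.22 and 8.57 before LH. Theca levels of AURKA were 7.30, 7.67 and 7.03 after LH, against 7.51, 7.24 and 7.66 before LH. It fell by 1.77 ± 0.27 in antral granulosa (adjusted p = 0.00014) and fell by 2.01 ± 0.27 in membrane granulosa (adjusted p = 5.05e-05). AURKA and NDC80 were the 2 members whose fitted fall was larger in membrane than in antral granulosa. PLK1, which acts at centrosomes and kinetochores, fell by 1.72 ± 0.21 in antral granulosa (adjusted p = 1.43e-05) and fell by 1.44 ± 0.21 in membrane granulosa (adjusted p = 0.000102).

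The chromosomal passenger complex corrects faulty kinetochore attachments, and all 3 of its measured genes fell. BIRC5 (survivin), which brings the complex to the centromere, read 6.05, 6.74 and 6.28 in antral granulosa after LH, against 10.69, 10.43 and 10.60 before LH, and 6.50, 6.85 and 6.91 in membrane granulosa after LH, against 10.14, 10.28 and 9.90 before LH. Theca levels of BIRC5 were 8.20, 8.52 and 7.87 after LH, against 8.94, 8.19 and 8.77 before LH. Its fall was the largest of the 35 in antral granulosa, and it fell by 4.22 ± 0.22 in antral granulosa (adjusted p = 4.16e-09) and fell by 3.35 ± 0.22 in membrane granulosa (adjusted p = 6.12e-08). AURKB, the kinase of the complex, read 6.92, 7.24 and 7.07 in antral granulosa after LH, against 9.0, 8.53 and 8.60 before LH, and 7.11, 7.18 and 7.15 in membrane granulosa after LH, against 8.63, 8.61 and 8.35 before LH. Theca levels of AURKB were 7.69, 7.99 and 7.37 after LH, against 7.85, 8.01 and 8.02 before LH. It fell by 1.64 ± 0.16 in antral granulosa (adjusted p = 1.75e-06) and fell by 1.38 ± 0.16 in membrane granulosa (adjusted p = 1.28e-05). CDCA8 (borealin) fell by 2.55 ± 0.31 in antral granulosa (adjusted p = 1.84e-05) and fell by 2.46 ± 0.31 in membrane granulosa (adjusted p = 3.43e-05).

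Among the 4 measured kinetochore and centromere members 3 fell. NDC80, which forms the microtubule-binding rod of the outer kinetochore, read 5.27, 5.30 and 5.22 in antral granulosa after LH, against 8.46, 8.59 and 8.81 before LH, and 4.82, 5.16 and 5.03 in membrane granulosa after LH, against 8.28, 8.60 and 8.70 before LH. Theca levels of NDC80 were 6.17, 7.10 and 5.65 after LH, against 6.95, 6.94 and 7.24 before LH. Its fall was the largest of the 35 in membrane granulosa, and it fell by 3.36 ± 0.26 in antral granulosa (adjusted p = 1.9e-07) and fell by 3.52 ± 0.26 in membrane granulosa (adjusted p = 1.73e-07). SPC24, a subunit of the same complex, read 6.59, 6.25 and 6.17 in antral granulosa after LH, against 9.97, 10.13 and 10.10 before LH, and 6.44, 6.55 and 7.35 in membrane granulosa after LH, against 9.52, 9.70 and 9.28 before LH. Theca levels of SPC24 were 8.63, 9.30 and 8.65 after LH, against 9.45, 9.06 and 9.32 before LH. It fell by 3.73 ± 0.23 in antral granulosa (adjusted p = 2e-08) and fell by 2.72 ± 0.23 in membrane granulosa (adjusted p = 6.95e-07). CENPF, a large protein of the outer kinetochore, fell by 3.16 ± 0.30 in antral granulosa (adjusted p = 1.21e-06) and fell by 2.79 ± 0.30 in membrane granulosa (adjusted p = 5.61e-06). CENPA, the histone H3 variant of centromeres, gave no usable signal: it was below 4.62 on all 18 arrays. It read 3.66, 3.08 and 3.30 in antral granulosa after LH, against 3.76, 3.15 and 3.54 before LH, and 3.29, 3.27 and 3.43 in membrane granulosa after LH, against 3.34, 3.34 and 3.39 before LH. Theca levels of CENPA were 3.41, 3.25 and 3.55 after LH, against 3.22, 3.27 and 3.26 before LH. Nothing is read from its changes by themselves, but CENPA stays in the counts and medians of the 35 members.

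All 5 measured spindle members fell. HMMR, a microtubule-binding protein of the spindle, read 7.42, 7.80 and 7.02 in antral granulosa after LH, against 10.64, 10.10 and 10.60 before LH, and 6.85, 7.43 and 7.29 in membrane granulosa after LH, against 10.18, 10.06 and 10.33 before LH. Theca levels of HMMR were 8.16, 8.96 and 8.04 after LH, against 9.53, 8.70 and 9.28 before LH. It fell by 3.03 ± 0.27 in antral granulosa (adjusted p = 8.32e-07) and fell by 3.0 ± 0.27 in membrane granulosa (adjusted p = 1.4e-06). KIF2C, a kinesin that takes microtubules apart at centromeres, read 4.75, 4.96 and 4.95 in antral granulosa after LH, against 7.65, 7.23 and 7.72 before LH, and 4.64, 4.80 and 5.35 in membrane granulosa after LH, against 7.26, 7.20 and 7.23 before LH. Theca levels of KIF2C were 6.06, 6.63 and 6.07 after LH, against 6.50, 5.98 and 6.66 before LH. It fell by 2.65 ± 0.21 in antral granulosa (adjusted p = 3.07e-07) and fell by 2.30 ± 0.21 in membrane granulosa (adjusted p = 1.68e-06). ASPM, of the spindle poles, fell by 3.62 ± 0.32 in antral granulosa (adjusted p = 6.36e-07) and fell by 3.36 ± 0.32 in membrane granulosa (adjusted p = 1.89e-06), and NUSAP1, which bundles spindle microtubules, by 3.67 ± 0.34 in antral granulosa (adjusted p = 9.66e-07) and fell by 3.12 ± 0.34 in membrane granulosa (adjusted p = 6.57e-06). TPX2, the activator of AURKA on the spindle, had the smallest falls of the 5 (-2.32 ± 0.32 in antral and -1.72 ± 0.32 in membrane granulosa).

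The 3 measured members of the central spindle and cytokinesis fell too. KIF23, a kinesin of the centralspindlin complex, read 6.85, 6.78 and 6.58 in antral granulosa after LH, against 9.60, 9.41 and 9.71 before LH, and 6.50, 6.84 and 7.23 in membrane granulosa after LH, against 9.30, 9.36 and 9.60 before LH. Theca levels of KIF23 were 7.95, 8.58 and 7.70 after LH, against 8.78, 8.53 and 9.09 before LH. It fell by 2.84 ± 0.22 in antral granulosa (adjusted p = 2.07e-07) and fell by 2.56 ± 0.22 in membrane granulosa (adjusted p = 7.74e-07). ECT2, the exchange factor that switches on RhoA for the contractile ring, read 6.22, 6.42 and 6.98 in antral granulosa after LH, against 9.40, 9.33 and 9.40 before LH, and 6.15, 6.61 and 7.16 in membrane granulosa after LH, against 9.27, 9.08 and 9.20 before LH. Theca levels of ECT2 were 7.27, 8.15 and 7.45 after LH, against 8.23, 7.77 and 8.24 before LH. It fell by 2.83 ± 0.26 in antral granulosa (adjusted p = 1.04e-06) and fell by 2.54 ± 0.26 in membrane granulosa (adjusted p = 4.32e-06), and KIF20A, a kinesin of the central spindle, by 3.24 ± 0.25 in antral granulosa (adjusted p = 1.96e-07) and fell by 2.35 ± 0.25 in membrane granulosa (adjusted p = 5.87e-06).

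Condensin packs the chromosomes, and the 3 measured members that encode its subunits fell. NCAPH, the subunit that bridges the condensin I ring, read 5.35, 5.13 and 5.15 in antral granulosa after LH, against 8.36, 7.67 and 8.34 before LH, and 4.66, 4.92 and 5.43 in membrane granulosa after LH, against 7.75, 7.67 and 8.05 before LH. Theca levels of NCAPH were 6.17, 6.92 and 6.24 after LH, against 6.74, 6.36 and 7.04 before LH. It fell by 2.91 ± 0.25 in antral granulosa (adjusted p = 5.38e-07) and fell by 2.82 ± 0.25 in membrane granulosa (adjusted p = 1.09e-06). NCAPG, another condensin I subunit, read 4.69, 5.46 and 5.43 in antral granulosa after LH, against 9.17, 9.24 and 9.18 before LH, and 5.03, 5.63 and 6.55 in membrane granulosa after LH, against 8.91, 8.89 and 8.88 before LH. Theca levels of NCAPG were 7.44, 8.39 and 7.67 after LH, against 8.56, 8.05 and 8.58 before LH. It fell by 4.0 ± 0.32 in antral granulosa (adjusted p = 2.8e-07) and fell by 3.16 ± 0.32 in membrane granulosa (adjusted p = 3.95e-06). SMC4, the ATPase shared by both condensins, fell by 2.02 ± 0.24 in antral granulosa (adjusted p = 1.24e-05) and fell by 1.84 ± 0.24 in membrane granulosa (adjusted p = 3.81e-05).

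**Figure D3:**
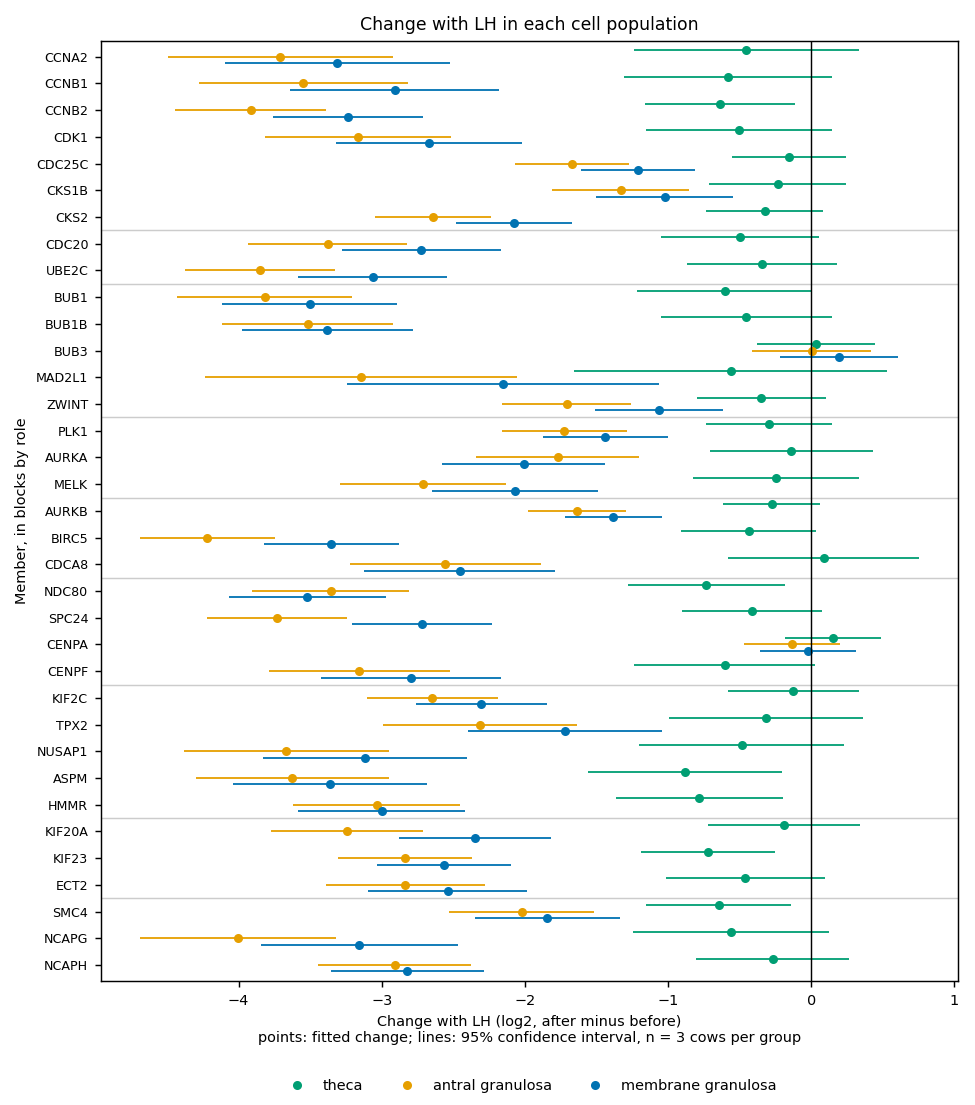
Fitted change with LH (log2, after minus before) of each member in theca, antral granulosa and membrane granulosa, with 95% confidence intervals (n = 3 cows per group). The granulosa changes of 33 members lie between -4.22 and -1.02, those of theca between -0.88 and 0.15, and BUB3 and CENPA lie near 0 in all populations.

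Markers of other cell types, and of granulosa itself, were read on the same granulosa arrays. In antral granulosa, 4 of 7 fibroblast markers were higher after LH, and their summed level was 9.47 to 11.85 after LH and 8.69 to 8.97 before LH (log2). No fibroblast marker of 7 was called in membrane granulosa, where the sum was 13.17 to 14.65 after LH and 11.48 to 13.22 before LH, with 2 of 7 at an unadjusted p under 0.05 by limma. Of 12 granulosa markers, 6 were lower and 1 higher in antral granulosa, and 7 lower and 1 higher in membrane granulosa. Their part in the falls of the mitotic genes was not tested. The 9 endothelial markers summed to 7.72 to 7.91 in antral granulosa after LH and 7.56 to 7.62 before LH, with 4 of 9 after LH and 5 of 9 before LH under 4.62 on all 3 arrays.

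In theca, limma called 0 of 35 members, where 2.12% of all probe sets were called lower and 1.79% higher. Even so, the mean after LH was below the mean before LH for 32 of 35, with a median change of -0.44 against -0.00 for all probe sets, and 6 members had an unadjusted p under 0.05, all lower. These were KIF23 (-0.72 ± 0.22, adjusted p = 0.0896), HMMR (-0.78 ± 0.27, adjusted p = 0.15), NDC80 (-0.73 ± 0.26, adjusted p = 0.152), ASPM (-0.88 ± 0.32, adjusted p = 0.164), SMC4 (-0.65 ± 0.24, adjusted p = 0.175) and CCNB2 (-0.64 ± 0.25, adjusted p = 0.207). ASPM read 7.23, 7.96 and 6.70 after LH, against 8.31, 7.56 and 8.66 before LH, and SMC4 6.49, 7.39 and 6.78 after LH, against 7.74, 7.16 and 7.70 before LH. For every member the theca arrays after LH overlapped those before LH, where 10.4% of all probe sets were lower after LH without overlap and 10.0% higher. The number of members with an unadjusted p under 0.05 was 1 without cow C or cow G, 2 without cow D, 3 without cow A, 8 without cow F and 23 without cow B. It was 4 when limma was fitted to the 6 theca arrays only, and 0 when the replicate number was added there as a block. The share of all probe sets at that threshold is not given, so nothing particular to the members is read from these counts. The median change was -0.20 without cow C, -0.29 without cow A and -0.67 without cow B.

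The theca array of cow B was the highest of the 3 after LH for 34 of 35 members. Its median member level was 8.47, against 7.78 in cow A and 7.67 in cow C, and for 26 members it was above the mean before LH. Without cow B, 5 members were called lower in theca: NDC80 (-1.13, adjusted p = 0.00562), HMMR (-1.07, adjusted p = 0.033), KIF23 (-0.97, adjusted p = 0.0318), CENPF (-0.96, adjusted p = 0.0464) and CDK1 (-0.89, adjusted p = 0.0395). Leaving out any other cow gave 0. The share of all probe sets called without cow B is not given here, so the 5 cannot be set against it. The theca data therefore do not show that the members were unchanged. The 95% intervals of the changes in theca reached as low as -1.65, for MAD2L1, and for 33 members they lay wholly above the change fitted in either granulosa population. The granulosa markers summed to 14.69 to 14.84 on theca arrays after LH and 15.16 to 15.83 before LH, with 3 of 12 lower and 1 higher, and the part of granulosa RNA in the theca values was not tested.

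The difference between the LH effects was tested as the change with LH of a within-cow difference between populations. A term for each cow was fitted, and the change itself compares cows A, B and C with cows D, F and G. Against antral granulosa, the LH effect in theca was higher (less negative) for 32 of 35 members and lower for 0, with a median difference of 2.58, where 5.64% of all probe sets were higher and 5.60% lower. Against membrane granulosa, it was higher for 31 and lower for 0, with a median of 2.18, where 4.56% and 4.57% were. Without cow B the counts higher were 31 against antral and 26 against membrane granulosa. Differences were large for BIRC5 (3.78 ± 0.27 against antral and 2.92 ± 0.27 against membrane granulosa), UBE2C (3.51 ± 0.27 and 2.72 ± 0.27), BUB1B (3.06 ± 0.31 and 2.93 ± 0.31) and BUB1 (3.21 ± 0.28 and 2.90 ± 0.28). The largest adjusted p among these was 0.000187. BUB3, CENPA and CKS1B were called against neither population, and ZWINT was called against antral but not against membrane granulosa. CKS1B differed by 1.10 ± 0.33 against antral granulosa (adjusted p = 0.0538) and by 0.79 ± 0.33 against membrane granulosa (adjusted p = 0.182). ZWINT differed by 0.72 ± 0.24 against membrane granulosa (adjusted p = 0.0837). The 2 sets of differences share the theca arrays. Where a member has further probe sets, all 19 of these had the same sign against membrane granulosa and 16 against antral granulosa, but 7 had the same call in each.

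Before LH, 17 of 35 members were lower in theca than in membrane granulosa of the same follicle and 0 were higher, where 18.9% of all probe sets were called lower and 15.4% higher. The median difference was -0.62. In 29 members theca was lower in all 3 cows, as in 34.3% of all probe sets. NDC80 differed by -1.49 ± 0.21 (adjusted p = 0.000171), with -1.33, -1.67 and -1.47 in cows D, F and G. BIRC5 differed by -1.48 ± 0.19 (adjusted p = 8.49e-05), with -1.20, -2.09 and -1.13. The other large differences were NCAPH (-1.11 ± 0.21), BUB1 (-1.11 ± 0.20), ECT2 (-1.10 ± 0.20) and BUB1B (-1.09 ± 0.22). Differences of the cyclins were smaller, and CCNB2 was the one called of 7 (-0.71 ± 0.24, adjusted p = 0.035). KIF20A (-0.04 ± 0.26), CKS1B (0.09 ± 0.23) and SPC24 (-0.22 ± 0.25) were not called. The count was 11 without cow D, 12 without cow F and 16 without cow G, and 8 members differed at 2-fold or more. Cow C has no array in this comparison and enters only through the fitted spread. Without it the count was 23, while the median difference stayed at -0.62. Of 19 further probe sets of these genes, 19 had the same sign and 5 the same call.

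After LH the order was turned round. Of 35 members 32 were called higher in theca than in membrane granulosa and 1 lower, where 11.4% of all probe sets were called higher and 14.4% lower. The median difference was 1.33, and 33 members were higher in theca in all 3 cows, as were 26.4% of all probe sets. Without cow B 23 members were called higher and 0 lower, with a median difference of 1.085. The counts were 29 higher and 0 lower without cow A, and 31 higher and 1 lower without cow C. KIF20A differed by 2.12 ± 0.26 (adjusted p = 0.000194), with 2.33, 2.65 and 1.37 in cows A, B and C. NCAPG differed by 2.10 ± 0.24 (adjusted p = 0.000125), with 2.41, 2.76 and 1.12. NUSAP1 (2.09 ± 0.29), SPC24 (2.08 ± 0.25), CCNA2 (1.96 ± 0.37) and ASPM (1.94 ± 0.25) followed. BUB3 went the other way, at -0.62 ± 0.15 (adjusted p = 0.00825), with -0.79, -0.86 and -0.21, close to its difference before LH (-0.46 ± 0.15, adjusted p = 0.0286). Its call after LH ended in 3 alternatives, 1 of them a 2-fold minimum (adjusted p up to 0.121). SMC4 (0.27 ± 0.14, adjusted p = 0.198) and CENPA were not called. For 29 of 35 members all 3 theca arrays after LH were above all 6 granulosa arrays after LH, where 10.4% of all probe sets were. For 25 members all 3 theca arrays before LH were below all 6 granulosa arrays before LH, where 17.6% of all probe sets were. Of 19 further probe sets, 16 had the same sign after LH and 7 the same call.

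**Figure D4:**
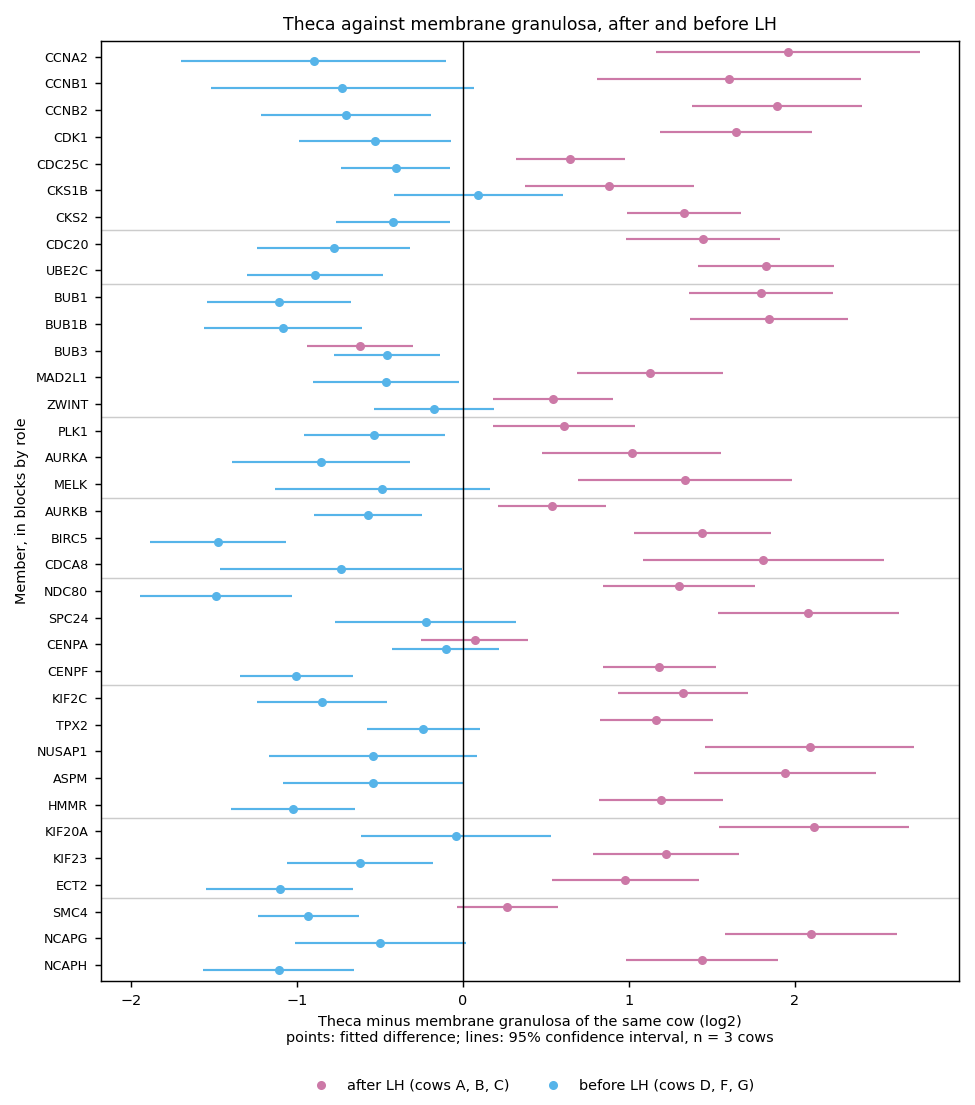
Difference between theca and membrane granulosa of the same cow (log2) for each member, after LH (cows A, B and C) and before LH (cows D, F and G), with 95% confidence intervals. The points after LH lie right of 0 except for BUB3 (-0.62), and those before LH lie left of 0 except for CKS1B (0.09).

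Markers of other cell types also differed between the populations. Compared with membrane granulosa, 7 of 9 endothelial, 8 of 8 smooth muscle and 5 of 7 fibroblast markers were higher in theca after LH, and 8 of 9, 7 of 8 and 7 of 7 before LH. The fibroblast markers summed to 15.55 to 15.93 in theca after LH and 15.27 to 15.66 before LH, against 13.17 to 14.65 in membrane granulosa after LH and 11.48 to 13.22 before LH, where none of the 7 was under 4.62 on all arrays. The smooth muscle markers summed to 13.43 to 14.25 in theca after LH and 14.21 to 14.96 before LH, against 10.31 to 11.79 in membrane granulosa after LH and 10.22 to 11.51 before LH. The endothelial markers summed to 11.09 to 11.93 in theca after LH and 11.15 to 11.88 before LH, against 7.92 to 9.24 in membrane granulosa after LH and 7.64 to 8.49 before LH (log2). Leukocyte markers were higher for 4 of 10 at each time, with sums of 10.40 to 11.37 in theca after LH and 10.34 to 11.20 before LH, against 9.0 to 9.74 and 9.22 to 9.39 in membrane granulosa. Which of these cells held the mitotic transcripts of theca was not tested.

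The 2 granulosa populations differed little. Before LH limma called 0 members between antral and membrane granulosa, where 0.687% of all probe sets were higher and 1.09% lower. The mean was higher in antral granulosa for 34 of 35, with a median difference of 0.30, and 22 were higher in all 3 cows, as were 21.2% of all probe sets. An unadjusted p under 0.05 was reached by 8 members, all higher, and by 3 without cow D and 4 without cow G. The smallest adjusted p were those of UBE2C (0.75 ± 0.19, adjusted p = 0.0641), CDC25C (0.53 ± 0.15, adjusted p = 0.097) and CKS1B (0.75 ± 0.23, adjusted p = 0.122).

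After LH, MAD2L1 was the 1 member called between antral and membrane granulosa, at -0.94 ± 0.20 (adjusted p = 0.0343), where 1.57% of all probe sets were called lower and 1.43% higher. It read 6.21, 7.42 and 6.84 in antral granulosa after LH, against 10.62, 9.71 and 9.58 before LH, and 7.12, 8.47 and 7.71 in membrane granulosa after LH, against 10.89, 9.68 and 9.19 before LH. Antral granulosa was lower in each of cows A, B and C. The call did not hold without any 1 of these cows, with no block or with the cow as a random block, so it rests on all 3 pairs. The median difference of the 35 was -0.12, and AURKA, at 0.77 ± 0.25 (adjusted p = 0.0979), had the largest difference in the higher direction, and its 3 antral arrays after LH lay above its 3 membrane arrays. An unadjusted p under 0.05 was reached by 3 members lower and 1 higher in antral granulosa. The median turned round without cow C, to 0.09 with 11 of 35 members below 0, against 25 of 35 with all cows, and was -0.27 without cow A.

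The change with LH was more negative in antral than in membrane granulosa for 33 of 35 members, with a median difference between the LH effects of -0.36. The median was -0.22 without cow C, with 27 of 35 more negative, and -0.58 without cow A. Limma called 0 of them in either direction, with 10 at an unadjusted p under 0.05, all lower (5 without cow C or cow D and 4 without cow G), and a smallest adjusted p of 0.415. None of the 24016 probe sets was called in that contrast (0.00%). Ordering the 6 group means from high to low as antral before, membrane before, theca before, theca after, membrane after and antral after LH held for 23 of 35 members. The lowest mean lay in antral granulosa after LH for 24 members and in membrane granulosa after LH for 9.

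A wider set of 172 mitotic genes was listed for comparison, also with earlier results of these data known, and 111 of them were measured. In antral granulosa 62 were lower after LH and 7 higher, and in membrane granulosa 62 lower and 8 higher, with medians of -0.65 and -0.62. Of all probe sets 12.2% were lower and 10.3% higher in antral granulosa, and 10.9% and 10.0% in membrane granulosa, so that the shares higher among these genes were no larger than those of the array. In theca 1 was lower and 0 higher, where 2.12% and 1.79% of all probe sets were.

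Of 23 further kinetochore and centromere genes, 21 fell in antral and 20 in membrane granulosa, and 0 rose. They included CENPN (-3.35 ± 0.33 in antral and -2.86 ± 0.33 in membrane granulosa) and CENPS (-2.11 ± 0.18 in antral and -1.54 ± 0.18 in membrane granulosa), both of the inner kinetochore, and DSN1 (-2.28 ± 0.25 in antral and -2.16 ± 0.25 in membrane granulosa), of the MIS12 complex. KNTC1, which recruits dynein to kinetochores as part of the RZZ complex, changed by -2.56 ± 0.27 and -2.24 ± 0.27. Of 32 further spindle and cytokinesis genes, 20 fell and 1 rose in antral granulosa, and 21 fell and 0 rose in membrane granulosa. Their examples are the microtubule-associated CKAP2 (-3.66 ± 0.27 in antral and -3.07 ± 0.27 in membrane granulosa), its relative CKAP2L (-2.78 ± 0.21 in antral and -2.47 ± 0.21 in membrane granulosa), and SPAG5 (-3.69 ± 0.29 in antral and -3.12 ± 0.29 in membrane granulosa), of the spindle. TROAP, a further spindle-associated protein, changed by -2.36 ± 0.21 and -2.47 ± 0.21. The exception was CLASP1, a microtubule-stabilising protein that also serves non-dividing cells, which rose by 0.89 ± 0.27 in antral granulosa (adjusted p = 0.0249) and changed by 0.75 ± 0.27 in membrane granulosa (adjusted p = 0.0605).

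Of 14 genes of the anaphase-promoting complex and its regulators, 6 fell and 0 rose in antral granulosa, and 5 fell and 1 rose in membrane granulosa. Separase, ESPL1, which cuts cohesin, was lower by at least 3.04 in membrane granulosa, where all 3 arrays after LH were under 4.62, and changed by -3.12 ± 0.28 in antral granulosa. FBXO5, the inhibitor EMI1, changed by -3.75 ± 0.30 and -3.13 ± 0.30, and UBE2S, which extends ubiquitin chains, by -2.33 ± 0.18 and -1.79 ± 0.18. The core subunit ANAPC5 changed by -2.09 ± 0.23 and -2.40 ± 0.23, and was the 1 mitotic gene called in theca (-0.99 ± 0.23, adjusted p = 0.0265). The core subunit ANAPC15 rose by 0.63 ± 0.19 in membrane granulosa (adjusted p = 0.0293).

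Of 12 cohesin, condensin and shugoshin genes, 5 fell in antral and 8 in membrane granulosa, and 0 rose. SGO1 (-3.13 ± 0.30 in antral and -2.46 ± 0.30 in membrane granulosa) and SGO2 (-1.71 ± 0.21 in antral and -1.58 ± 0.21 in membrane granulosa) encode the shugoshins that shield centromeric cohesin. NCAPG2 (-2.63 ± 0.27 in antral and -2.15 ± 0.27 in membrane granulosa) and NCAPD2 (-2.23 ± 0.29 in antral and -1.98 ± 0.29 in membrane granulosa) encode condensin subunits.

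The control of mitotic entry was mixed. Of 14 genes, 5 fell and 2 rose in antral granulosa, and 4 fell and 3 rose in membrane granulosa, with medians of -0.06 and 0.24. The cyclin CCNF (-2.62 ± 0.24 in antral and -2.37 ± 0.24 in membrane granulosa), the checkpoint kinase CHEK1 (-2.46 ± 0.25 in antral and -2.11 ± 0.25 in membrane granulosa) and BORA (-1.90 ± 0.32 in antral and -2.27 ± 0.32 in membrane granulosa), which helps AURKA activate PLK1, fell. PPP1CC (0.66 ± 0.12 in antral and 0.71 ± 0.12 in membrane granulosa) and PPP2R2A (0.63 ± 0.17 in antral and 0.99 ± 0.17 in membrane granulosa), phosphatase subunits with many roles, rose, as did the CDK-activating kinase CDK7 in membrane granulosa (0.61 ± 0.20, adjusted p = 0.0389).

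Among 16 genes listed as regulators of mitotic gene transcription, which were transcription factors, pocket proteins, subunits of the DREAM complex and the CDK inhibitor gene CDKN1A, 5 fell and 4 rose in antral granulosa, and 4 fell and 4 rose in membrane granulosa, with medians of -0.00 and 0.07. MYBL2, the B-MYB activator, changed by -0.97 ± 0.24 and -1.16 ± 0.24, and the repressor E2F6 by -0.68 ± 0.13 and -0.72 ± 0.13. RBL2 (p130), the pocket protein of resting cells, rose by 0.83 ± 0.16 and 0.84 ± 0.16, and TFDP2, a partner of E2F factors, by 1.16 ± 0.12 and 0.80 ± 0.12. RBBP4, a histone-binding protein that also belongs to the DREAM repressor complex, rose by 0.60 ± 0.14 and 0.62 ± 0.14. CDKN1A, which encodes the CDK inhibitor p21, rose by 1.66 ± 0.57 in antral granulosa (adjusted p = 0.0493) and by 2.21 ± 0.57 in membrane granulosa (adjusted p = 0.011). In theca CDKN1A changed by 1.66 ± 0.57 (adjusted p = 0.143), a value of similar size that was not called.

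**Figure D5:**
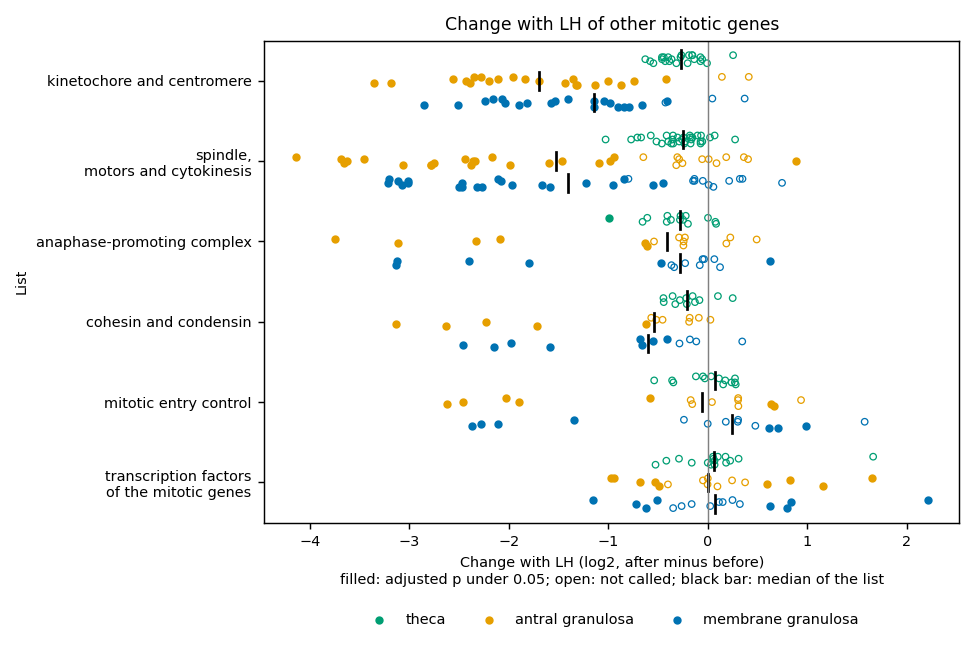
Change with LH (log2, after minus before) of 111 further mitotic genes in 6 lists, in theca, antral granulosa and membrane granulosa (filled, adjusted p under 0.05; open, not called; black bar, list median). Kinetochore and spindle genes reach below -3 in granulosa, the entry-control and transcription-factor lists lie on both sides of 0, and 1 filled point, ANAPC5, is in theca.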

How the data were processed

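Affymetrix 3' expression arrays were hybridised with RNA of 3 cell populations from 6 cows. Per the submitters' processing notes, the deposited log2 values were made by the authors with RMA in Partek 6.5. The RMA settings are not given in the sources used here. Extraction used Trizol and labelling a 3' IVT kit, per the labels. RMA as usually run puts the arrays on a common distribution and compresses changes near background.

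From the deposited log2 signals, 112 control probe sets were dropped. The other 24016 entered limma 3.58.1 in R 4.3.3 (lmFit, eBayes, Benjamini-Hochberg across all of them, threshold 0.05). Changes with LH compare different cows, with 6 group means and no block. Comparisons of populations, and of LH effects between them, carry a fixed term for each cow. This pairing comes from the labels, which name the cow. Deviations from the group means correlated at -0.02 to 0.69 between arrays of 1 cow, and 17 of 18 such pairs were over 0.1. The code was tested on simulated data.

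In the platform's annotation, which can be old, 13292 probe sets carry 1 gene symbol, 86 several and 10638 none, and no symbol changed through the RefSeq gene table. Of the 35 members 14 have further probe sets, 19 in all. For the LH effect, 18 of the 19 had the same sign and 15 the same call in antral granulosa, and likewise 18 and 15 in membrane granulosa, with no opposite call. Where all 3 arrays of a group lay below 4.62, a difference is a bound to that limit.

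The members and all gene lists were chosen with earlier results of these data known. Any member may be named. Values on every array are given for the 2 members of each role group with the smallest adjusted p for LH in membrane granulosa, for members not called there, and for members called against the direction of most. Of the lists of other mitotic genes, up to 4 with the smallest adjusted p there are named, and any called in the opposite direction. Comparisons otherwise name up to 6 of the largest called members. The alternatives tried were quantile normalization, centring on array medians, dropping the dimmest 8005 probe sets, eBayes with trend and robust, 1 probe set per gene, the mean of a gene's probe sets, a 2-fold minimum, fitting only the arrays of a comparison, other blocks, and dropping each cow in turn. Figures were drawn with matplotlib 3.10.9.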

Additional observations from a re-analysis of the deposited data

Results flagged for a closer look

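The LH effect differed between theca and granulosa, by the test of the difference itself, for most members. Against membrane granulosa 31 members passed, all higher in theca, and the 6 largest differences were those of BUB1B (2.93), BIRC5 (2.92), BUB1 (2.90), CCNA2 (2.86), NDC80 (2.79) and UBE2C (2.72) on the log2 scale. Against antral granulosa 32 members passed, all higher in theca, with BIRC5 (3.78), UBE2C (3.51), NCAPG (3.44), SPC24 (3.32), CCNB2 (3.28) and CCNA2 (3.26) the largest. Both sets of tests use the same theca arrays.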

How the results depend on the processing

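The counts of members lower after LH in both granulosa populations, of members higher in theca than in membrane granulosa after LH, and of members whose LH effect was higher in theca stayed within 1.5 times of the reported counts under every alternative run, and no called gene difference reversed. Of 2700 such called differences under an alternative, 2620 kept their direction and side of the threshold and 80 kept the direction but lost the call. Quantile normalization, centring, the mean of a gene's probe sets and dropping a cow of the comparison can move a fitted change. The other alternatives leave it as it was, so no direction could reverse under them. With the replicate number as a block, although numbers name different cows after and before LH (correlations of -0.17 to 0.23, with 2 of 9 pairs over 0.1), the counts were 32 lower in membrane granulosa, 33 in antral granulosa and 0 in theca. Leaving out a cow gave 0 to 5 members called in theca after LH. For theca against membrane granulosa before LH the count was 8 at 2-fold or more and ranged from 11 to 16 without cow D, F or G. Cows A, B and C enter that comparison only through the fitted spread, and without 1 of them it ranged from 18 to 23. For antral against membrane granulosa before LH the count was 1 with 1 probe set per gene tested (UBE2C, 0.75, adjusted p = 0.0453). It was also 1 without cow C, which has no array in that comparison, and 0 without any other cow. For the same populations after LH the count was 0 at 2-fold or more. It was also 0 with no term for the cow and 0 with the cow as a random block. Dropping a cow gave 0 to 1. Members that were not called are not among these, and some changed sign: in antral against membrane granulosa after LH the median difference was 0.09 without cow C, against -0.12 with all cows. The cause was not tested. With 3 cows per group and probe sets such as CENPA under 4.62, small changes and dim genes are not resolved.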

Other observations

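The cow with the highest members was not the same in each population. In theca, cow B was highest for 34 of 35 members after LH and cow F lowest for 30 of 35 before LH. In antral granulosa, cow C was lowest for 21 after LH and cow F for 25 before LH, while in membrane granulosa cow A was lowest for 29 after LH and the cows before LH shared the lowest place (11 for cow D, 10 for cow F and 14 for cow G).

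MAD2L1 varied more between cows than the other members before LH, with the highest SD of the 35 in theca (0.65), antral granulosa (0.57) and membrane granulosa (0.87). Its theca levels after LH were 8.53, 9.77 and 8.38 in cows A, B and C, and those before LH were 10.15, 8.85 and 9.37 in cows D, F and G. Cow B was the highest of its group in all 3 populations after LH, and cow D in all 3 before LH. No other member was tested for such a pattern.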
